A study of Homo sapiens with 3 samples.

Results

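The genes described here are 52 named genes of mitosis, which encode mitotic entry kinases and cyclins, centromere and kinetochore proteins, the spindle checkpoint, the chromosomal passenger complex, spindle proteins, condensin and the transcription factors MYBL2 and FOXM1. They were taken by name from the gene table of an RNA sequencing study of HCT116 cells, a human line established from a colon cancer. Each of the 52 names has 1 entry among the 48162 entries of the table, and all 52 passed the level filter of a mean of at least 1 CPM (a gene's reads relative to the scaled library total), as did 12694 entries in all.

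The study holds 3 libraries, 1 per group, each from total RNA. The first is from cells given 1 µM palbociclib, an inhibitor of the kinases CDK4 and CDK6, and was collected after 24 hours. The second is from cells transfected with siRNA, short RNA that lowers its target mRNA, directed at CDK4, also collected after 24 hours. The third is from cells left untreated, and it is the only control. All groups are the same cell line with no other agent named in the labels, and no library with a non-targeting siRNA or drug solvent was analysed here. With 1 library a group there is no spread between cultures, no p-value is given, and each difference is between libraries with no replicate check.

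Mitosis begins when CDK1 bound to cyclin B phosphorylates its substrates, helped by the kinases PLK1 and Aurora A. Kinetochores assemble on centromeres marked by the histone variant CENPA and attach to microtubules through the NDC80 complex. The spindle checkpoint holds back the anaphase-promoting complex (APC/C) and its activator CDC20 until chromosomes are attached, after which separase cuts cohesin. In proliferating cells the mRNAs of many of these genes are made in G2 and M phase, when the MuvB complex works with MYBL2 and FOXM1 at a promoter element called the CHR. Outside the cycle the same MuvB core, in the DREAM complex, represses such genes, and the factor NF-Y binds CCAAT boxes in many of their promoters.

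Promoter sequences are shown for the 3 members furthest below the untreated level with palbociclib, PSRC1, SPC24 and SPC25, and for the member closest to it, CENPN. CCNB1 was added as a textbook gene of this class. Each runs 5′ to 3′ along the gene's strand, from 150 bases before the RefSeq start to 30 bases from it onward, in build GRCh38.p14. Capitals mark CCAAT on either strand (ATTGG on the other strand) and the CHR letters TTTGAA, or its variants TTCGAA and TTTAAA, which were added after the data were seen.
PSRC1, chr1:109283116-109283295, minus strand: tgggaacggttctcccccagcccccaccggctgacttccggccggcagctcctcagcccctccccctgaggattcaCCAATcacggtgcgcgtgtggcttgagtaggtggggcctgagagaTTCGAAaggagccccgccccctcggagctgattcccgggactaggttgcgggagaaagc
SPC24, chr19:11155753-11155932, minus strand: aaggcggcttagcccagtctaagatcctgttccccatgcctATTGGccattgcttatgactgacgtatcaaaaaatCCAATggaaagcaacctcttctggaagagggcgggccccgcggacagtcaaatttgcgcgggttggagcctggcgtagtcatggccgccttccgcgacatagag
SPC25, chr2:168890401-168890580, minus strand: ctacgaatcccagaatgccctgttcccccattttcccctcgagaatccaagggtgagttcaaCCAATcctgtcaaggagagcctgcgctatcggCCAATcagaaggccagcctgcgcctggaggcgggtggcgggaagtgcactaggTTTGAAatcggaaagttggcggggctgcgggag
CENPN, chr16:81007064-81007243, plus strand: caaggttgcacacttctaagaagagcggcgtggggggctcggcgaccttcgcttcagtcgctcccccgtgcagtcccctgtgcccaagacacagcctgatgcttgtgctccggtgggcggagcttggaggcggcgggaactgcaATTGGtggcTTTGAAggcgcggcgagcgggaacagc
CCNB1, chr5:69167000-69167179, plus strand: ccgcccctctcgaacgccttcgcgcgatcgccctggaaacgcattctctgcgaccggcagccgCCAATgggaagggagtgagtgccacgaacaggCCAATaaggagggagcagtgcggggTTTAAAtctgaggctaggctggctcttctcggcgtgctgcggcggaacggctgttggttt
In CCNB1 the CCAAT boxes begin 87 and 55 bases before the start and the CHR variant 30 bases before it. PSRC1 has a CCAAT box 74 bases before the start and a CHR variant 29 bases before it, while SPC24 has CCAAT letters 109 and 74 bases before the start and none of the CHR letters searched.

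The library totals were 18020870 reads with palbociclib, 18349355 with CDK4 siRNA and 20313597 in untreated cells. CDK4, the target of the siRNA, had 1059 reads in the siRNA library and 2689 in the untreated library, a ratio of 0.42 (95% counting interval 0.391 to 0.451), and 1426 reads in the palbociclib library. All 5 epithelial marker genes had reads in every library, with summed levels of 4529 CPM with palbociclib, 4993 with siRNA and 5144 in untreated cells. The sum covers keratin genes that differed in direction with palbociclib: KRT8 was at 0.556 and KRT18 at 0.712 of the untreated level, KRT19 at 1.68, and the adhesion genes EPCAM at 1.26 and CDH1 at 0.789. The blood markers PTPRC and CD3E were at 0 in all libraries, COL1A2 of the fibroblast list and CDH5 of the endothelial list were also at 0, and the summed fibroblast list held 8.75 CPM with palbociclib, 22.3 CPM with siRNA and 15 CPM in untreated cells. The palbociclib library stood apart in composition: mitochondrial entries took 6.53% of its reads, against 3.85% with siRNA and 4.02% in untreated cells, and MALAT1, a nuclear RNA, had 13502 reads there, against 2211 with siRNA and 1355 in untreated cells. With such entries left out of the scaling, the count of mitotic genes given below did not move.

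With palbociclib every one of the 52 mitotic genes was below its untreated level. Together they took 50677 reads in the palbociclib library, or 0.281% of all its reads (exact 95% interval 0.279 to 0.284), 142049 with siRNA, or 0.774% (0.770 to 0.778), and 152956 in untreated cells, or 0.753% (0.749 to 0.757). After scaling by the trimmed mean of M-values (TMM), the summed level was 3121 CPM with palbociclib, 7211 CPM with siRNA and 7283 CPM in untreated cells. The palbociclib sum was 0.429 of the untreated sum (0.424 to 0.433), and the siRNA sum was 0.990 of it (0.983 to 0.997). In bulk RNA, fewer cells in G2 and M phase and less mRNA per cell cannot be told apart.

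A gene was counted as lower or higher when its log2 ratio, taken with a prior count of 2, was at least 1 in size and the counting interval of its ratio excluded 1. By this rule 35 of the 52 were lower and 0 higher with palbociclib than in untreated cells, while 13.6% of the 12694 genes compared were lower and 10% higher. The counting interval lay below 1 for all 52, and for 41.9% of all genes compared. The members' median log2 ratio was −1.27, beside −0.07 over all genes. Ratios ran between 0.0983 for PSRC1 and 0.80 for CENPN. Ordered from the lowest log2 ratio of all genes compared, PSRC1 stood at 13, SPC24 at 14 and SPC25 at 61, and at the other end CENPN stood at 4761. Among the lowest 10% of genes were 30 of the members. Scaling by total reads in place of TMM moved the median of all genes to −0.27, with 19.1% of genes lower and 6.63% higher, and 44 of the 52 were then lower and 0 higher. The members' median stayed 1.20 below that of all genes on the log2 scale.

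**Figure D1:**
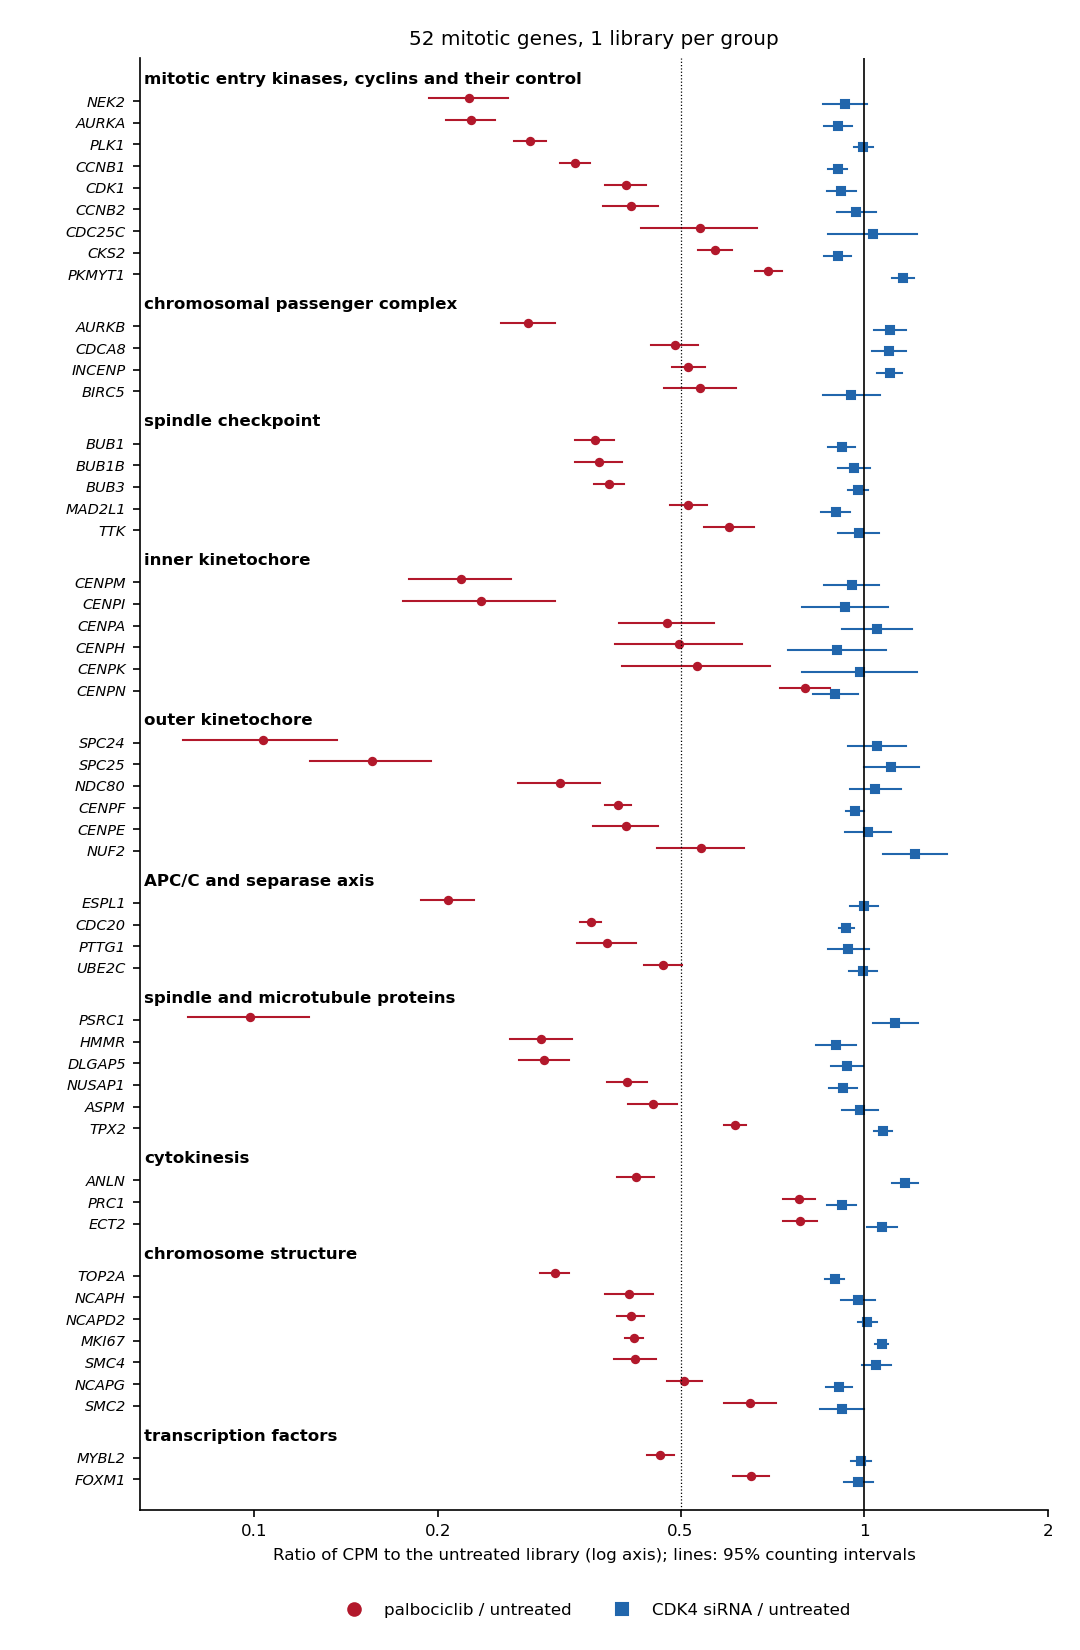
Ratio of CPM to the untreated library for each of the 52 mitotic genes on a log axis, with palbociclib as red circles and CDK4 siRNA as blue squares, grouped by role. Lines are 95% counting intervals, the dotted line is a ratio of 0.5 and the solid line 1. All palbociclib ratios lie between 0.0983 and 0.80, and all siRNA ratios between 0.895 and 1.21.

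With the CDK4 siRNA, 0 of the 52 were lower and 0 higher than in untreated cells by the same rule, and over all genes compared 0.118% were lower and 1.10% higher. Some members' counting intervals excluded 1. They lay below 1 for 15 members, against 23.7% of all genes, and above 1 for 10, against 17.7% of all genes. The median log2 ratio was −0.03, beside −0.02 over all genes, and it was 0.02 when libraries were scaled by total reads. The direction of a siRNA ratio close to 1 therefore depends on the scaling: 33 of 52 members were below the untreated level with TMM and 22 with total reads. The comparisons of palbociclib and of siRNA with untreated cells share the untreated library.

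Set directly against each other, 37 of the 52 were lower and 0 higher in the palbociclib library than in the siRNA library, where 13.8% of all genes were lower and 8.75% higher. All 52 intervals of this ratio lay below 1, as did those of 41.4% of all genes. The median log2 ratio was −1.27, beside −0.08 over all genes. The ratio ran between 0.0874 for PSRC1 and 0.892 for CENPN. INCENP, at 0.468, and NUF2, at 0.446, were counted here and not against untreated cells.

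**Figure D2:**
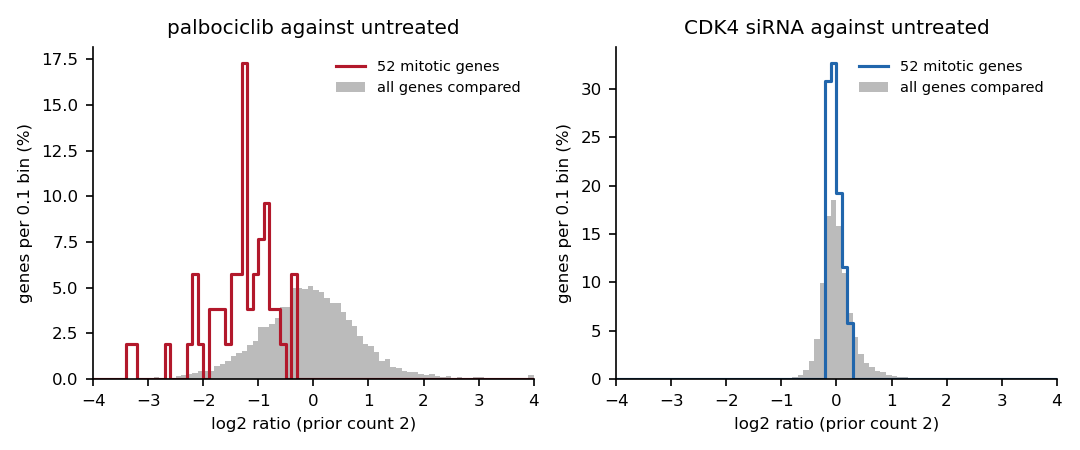
Share of genes in each bin of log2 ratio (0.1 wide, values beyond 4 placed in the end bins), for palbociclib against untreated on the left and CDK4 siRNA against untreated on the right. Grey bars are all 12694 genes compared and the line is the 52 mitotic genes. The members' median is −1.27 with palbociclib and −0.03 with siRNA, beside −0.07 and −0.02 for all genes.

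Among the 9 kinases, cyclins and controls of mitotic entry, 6 were lower with palbociclib, with a median log2 ratio of −1.30. NEK2, a centrosome kinase, was furthest below, with 211 reads (13.0 CPM) with palbociclib, 1058 (53.7 CPM) with siRNA and 1214 (57.8 CPM) in untreated cells, a palbociclib ratio of 0.225 (0.193 to 0.26). AURKA, the spindle pole kinase Aurora A, had 536 reads with palbociclib, 2602 with siRNA and 3061 in untreated cells, a palbociclib ratio of 0.227 (0.206 to 0.248). The siRNA library was close to untreated cells for both genes and the palbociclib library far below. PLK1, the Polo-like kinase, had a ratio of 0.284 (0.267 to 0.301). The cyclin B genes CCNB1 and CCNB2 were at 0.336 and 0.414, and their kinase partner CDK1 at 0.407. CDC25C, the phosphatase that activates CDK1, was not counted at 0.537 (0.430 to 0.667), on 120 reads with palbociclib against 289 in untreated cells. CKS2, a small CDK-binding protein, was at 0.569. PKMYT1, a kinase that restrains CDK1, was the least different of the group, with 2272 reads (140 CPM) with palbociclib and 4219 (201 CPM) in untreated cells, a ratio of 0.697 (0.662 to 0.733), and it had 4580 reads with siRNA, a ratio of 1.16 (1.11 to 1.21) to untreated cells. Exons of PKMYT1 overlap those of KREMEN2 and PAQR4 in the annotation, whose palbociclib ratios to untreated cells were 0.382 and 0.383. Exons of CDC25C overlap those of FAM53C, which had 2423 reads with palbociclib and a ratio of 1.87. Whether the counting used strand is not stated, and the part of shared reads in these values was not tested.

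The chromosomal passenger complex corrects faulty attachments, and 2 of its 4 genes were lower with palbociclib. AURKB, its kinase Aurora B, had 465 reads (28.6 CPM) with palbociclib, 2211 (112 CPM) with siRNA and 2139 (102 CPM) in untreated cells, a palbociclib ratio of 0.281 (0.254 to 0.311). Its scaffold and targeting subunits stood higher: CDCA8 (borealin) at 0.489, INCENP at 0.515 and BIRC5 (survivin) at 0.538 (0.469 to 0.616). BIRC5 had 305 reads (18.8 CPM) with palbociclib and 733 (34.9 CPM) in untreated cells. The palbociclib ratio of AURKB divided by that of BIRC5 was 0.522 (0.442 to 0.617), a counting interval for a pair chosen after its values were seen, as are all the pairs below. With siRNA, AURKB, CDCA8 and INCENP each had a ratio of 1.10 with an interval above 1 on the TMM scale.

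In the spindle checkpoint 3 of 5 genes were lower with palbociclib, with a median log2 ratio of −1.39. BUB1, a checkpoint kinase, had 930 reads (57.3 CPM) with palbociclib, 2865 (145 CPM) with siRNA and 3324 (158 CPM) in untreated cells, a palbociclib ratio of 0.362 (0.336 to 0.389). BUB1B and BUB3, its partners in the checkpoint, were at 0.367 and 0.382, so the palbociclib intervals of all 3 BUB genes overlap. The ratio of BUB1 divided by that of BUB1B was 0.986 (0.880 to 1.10). MAD2L1, which binds and holds CDC20, was at 0.515 and TTK, the kinase MPS1, at 0.601 (0.546 to 0.660), and neither was counted. TTK had 649 reads (40.0 CPM) with palbociclib, 1284 (65.2 CPM) with siRNA and 1398 (66.6 CPM) in untreated cells.

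Of the 6 inner kinetochore genes 3 were lower with palbociclib, with a median log2 ratio of −1.03. CENPM had 128 reads (7.88 CPM) with palbociclib, 680 (34.5 CPM) with siRNA and 760 (36.2 CPM) in untreated cells, a palbociclib ratio of 0.218 (0.179 to 0.263). CENPI, like CENPM a subunit of the centromere network CCAN, was at 0.236 (0.175 to 0.312) on 59 reads with palbociclib against 324 in untreated cells. CENPA was at 0.475, CENPH at 0.497 and CENPK at 0.532 (0.4 to 0.701), the last on 74 reads with palbociclib, so its interval is wide. CENPN, which reads the CENPA nucleosome, had 724 reads (44.6 CPM) with palbociclib, 985 (50 CPM) with siRNA and 1171 (55.8 CPM) in untreated cells, a palbociclib ratio of 0.80 (0.728 to 0.878) and a siRNA ratio of 0.897 (0.823 to 0.977). Those 2 intervals overlap, which no other member's do. CENPN overlaps CMC2, a mitochondrial protein gene on the opposite strand, whose palbociclib ratio was 0.77 (0.659 to 0.898), and the part of shared reads in either value was not tested.

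Of the 6 outer kinetochore genes 5 were lower with palbociclib, with a median log2 ratio of −1.5. SPC24 had 53 reads (3.26 CPM) with palbociclib, 655 (33.2 CPM) with siRNA and 665 (31.7 CPM) in untreated cells, a palbociclib ratio of 0.103 (0.0764 to 0.136). SPC25 had 87 reads with palbociclib, 751 with siRNA and 722 in untreated cells, a palbociclib ratio of 0.156 (0.123 to 0.195). Both encode the end of the NDC80 complex that docks on the kinetochore. The microtubule-binding subunits stood higher, NDC80 at 0.317 (0.271 to 0.369) and NUF2 at 0.541 (0.458 to 0.636). NUF2 had 211 reads (13.0 CPM) with palbociclib, 574 (29.1 CPM) with siRNA and 505 (24.0 CPM) in untreated cells, and its siRNA ratio of 1.21 (1.07 to 1.37) was the largest of the 52. The large coiled-coil proteins CENPF and the motor CENPE were at 0.395 and 0.407.

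The mRNAs for subunits of the same complex can be set beside each other as CPM per kilobase of counted gene length. These are mRNA levels, and protein amounts were not measured. In the NDC80 complex the palbociclib library ran from 1.41 CPM per kilobase for SPC24 to 6.60 for NUF2, so that the highest subunit was 4.68 times the lowest. That span was 1.96 times in the siRNA library and 2.08 times in untreated cells. The palbociclib ratio of SPC24 was 0.191 (0.138 to 0.263) of that of NUF2. In the chromosomal passenger complex the span was narrower with palbociclib, 3.31 times, against 7.33 times with siRNA and 6.33 times in untreated cells. Condensin I also spanned less with palbociclib, 3.5 times, against 6.04 times with siRNA and 5.49 times in untreated cells. In those complexes AURKB and NCAPD2 were the highest subunits in all 3 libraries. Exons of NCAPD2, NCAPG and SMC4 overlap those of other genes, as given below, and the part of shared reads in these levels was not tested.

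**Figure D3:**
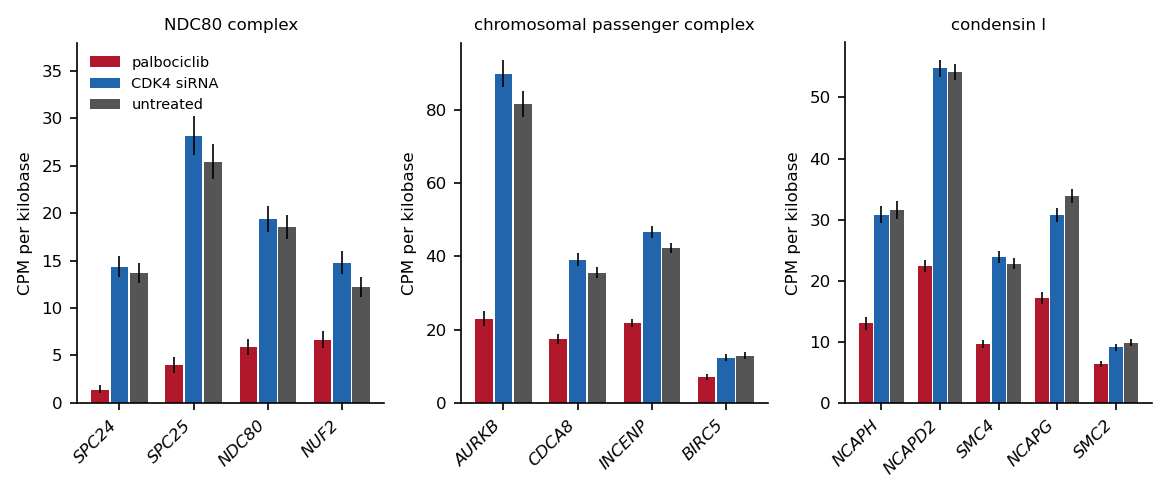
Levels in CPM per kilobase of the subunits of the NDC80 complex, the chromosomal passenger complex and condensin I in the palbociclib (red), CDK4 siRNA (blue) and untreated (grey) libraries. Bars are single libraries and lines are exact 95% counting intervals. SPC24 is at 1.41 with palbociclib and is the lowest NDC80 subunit there, while NUF2 is the lowest in untreated cells.

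All 4 genes of the APC/C and separase axis were lower with palbociclib, with a median log2 ratio of −1.44. ESPL1, the protease separase, had 454 reads (28.0 CPM) with palbociclib, 2654 (135 CPM) with siRNA and 2828 (135 CPM) in untreated cells, a palbociclib ratio of 0.208 (0.188 to 0.229). CDC20, the APC/C activator, was at 0.356, with 3129 reads with palbociclib, 9971 with siRNA and 11363 in untreated cells. Its retrocopy CDC20P1 held 11 reads with palbociclib, 46 with siRNA and 53 in untreated cells. PTTG1, the separase inhibitor securin, was at 0.379 (0.339 to 0.423), so that the palbociclib ratio of ESPL1 was 0.548 (0.473 to 0.636) of that of PTTG1. UBE2C, the ubiquitin-conjugating enzyme of the APC/C, was at 0.468, with 1030 reads (63.4 CPM) with palbociclib, 2656 (135 CPM) with siRNA and 2846 (136 CPM) in untreated cells.

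Among the 6 spindle and microtubule genes 5 were lower with palbociclib, with a median log2 ratio of −1.51. PSRC1, a microtubule-associated protein, had 83 reads (5.11 CPM) with palbociclib, 1153 (58.5 CPM) with siRNA and 1092 (52 CPM) in untreated cells. Its palbociclib ratio of 0.0983 (0.0777 to 0.123) was the lowest of the 52, while its siRNA ratio was 1.13 (1.04 to 1.22). HMMR, DLGAP5 and NUSAP1, which bundle or stabilise spindle microtubules, were at 0.295, 0.299 and 0.408, and the spindle pole protein ASPM at 0.450. TPX2, which activates Aurora A, was not counted, with 3354 reads (207 CPM) with palbociclib, 7107 (361 CPM) with siRNA and 7056 (336 CPM) in untreated cells, a palbociclib ratio of 0.615 (0.590 to 0.641). The kinase and its activator thus differed: the palbociclib ratio of AURKA was 0.368 (0.333 to 0.407) of that of TPX2.

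Of the 3 cytokinesis genes 1 was lower with palbociclib, with a median log2 ratio of −0.35. ANLN, a contractile ring scaffold, had 1058 reads (65.2 CPM) with palbociclib, 3552 (180 CPM) with siRNA and 3243 (154 CPM) in untreated cells, a palbociclib ratio of 0.422 (0.393 to 0.453) and a siRNA ratio of 1.17 (1.11 to 1.22). PRC1, the midzone microtubule bundler, was at 0.782 (0.736 to 0.830) with palbociclib. ECT2, the exchange factor that activates RhoA, had 1516 reads (93.4 CPM) with palbociclib, 2505 (127 CPM) with siRNA and 2495 (119 CPM) in untreated cells, a palbociclib ratio of 0.786 (0.737 to 0.838). PRC1 overlaps an antisense RNA and a gene on its own strand in the annotation, and ECT2 overlaps no other gene there.

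In chromosome structure 5 of 7 genes were lower with palbociclib, with a median log2 ratio of −1.25. TOP2A, the topoisomerase that untangles sister chromatids, had 1662 reads (102 CPM) with palbociclib, 5808 (295 CPM) with siRNA and 6919 (329 CPM) in untreated cells, a palbociclib ratio of 0.311 (0.294 to 0.328). Its siRNA ratio of 0.895 (0.864 to 0.927) was the lowest of the 52. The condensin genes NCAPH, NCAPD2 and SMC4 were at 0.412, 0.414 and 0.421 and their intervals overlap, while NCAPG was at 0.507 and SMC2 at 0.650 (0.589 to 0.716). Exons of NCAPD2, NCAPG and SMC4 overlap those of MRPL51, LCORL and TRIM59 in the annotation. The palbociclib ratios of these neighbours were 0.498, 0.521 and 0.349, and the part of shared reads was not tested. SMC2 had 622 reads (38.3 CPM) with palbociclib, 1068 (54.2 CPM) with siRNA and 1238 (58.9 CPM) in untreated cells. MKI67, which coats mitotic chromosomes and encodes the proliferation marker Ki-67, had the most reads of the members in each library, 4166 with palbociclib, 12886 with siRNA and 12853 in untreated cells, a palbociclib ratio of 0.419 (0.405 to 0.434).

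The transcription factors differed from each other with palbociclib. MYBL2 had 2000 reads (123 CPM) with palbociclib, 5190 (263 CPM) with siRNA and 5589 (266 CPM) in untreated cells, a palbociclib ratio of 0.463 (0.440 to 0.487). FOXM1 had 1337 reads (82.4 CPM) with palbociclib, 2434 (124 CPM) with siRNA and 2651 (126 CPM) in untreated cells, a palbociclib ratio of 0.652 (0.610 to 0.697), and was not counted. Both siRNA intervals, 0.953 to 1.03 for MYBL2 and 0.926 to 1.03 for FOXM1, hold 1.

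The 2-fold rule divides members that lie close together. Just inside it with palbociclib were CDCA8 at 0.489 (0.448 to 0.534), CENPA at 0.475 (0.397 to 0.567) and UBE2C at 0.468 (0.436 to 0.503). Just outside were CENPH at 0.497 (0.390 to 0.630), whose log2 ratio with the prior count fell short of the rule, NCAPG at 0.507 (0.475 to 0.541) and MAD2L1 at 0.515 (0.480 to 0.552). The intervals of CDCA8 and MAD2L1 overlap. CDCA8 had 697 reads (42.9 CPM) with palbociclib, 1900 (96.4 CPM) with siRNA and 1844 (87.8 CPM) in untreated cells. CENPA had 172 reads (10.6 CPM) with palbociclib, 461 (23.4 CPM) with siRNA and 468 (22.3 CPM) in untreated cells. CENPH had 98 reads (6.04 CPM) with palbociclib, 216 (11 CPM) with siRNA and 255 (12.1 CPM) in untreated cells. For all 3 genes the siRNA library was close to the untreated one and the palbociclib library below both. NCAPG had 1299 reads (80.01 CPM) with palbociclib, 2827 (144 CPM) with siRNA and 3312 (158 CPM) in untreated cells, and MAD2L1 had 1101 reads (67.8 CPM) with palbociclib, 2331 (118 CPM) with siRNA and 2766 (132 CPM) in untreated cells.

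The levels of the members varied far more among genes than their palbociclib ratios. They ran from 1.11 CPM per kilobase for CENPI to 141 for CKS2 with palbociclib (median 14.9), from 4.40 for CENPI to 285 for CDC20 with siRNA (median 33.4), and from 4.73 for CENPI to 304 for CDC20 in untreated cells (median 33.7). Across the 52 genes the palbociclib log2 ratio had a rank correlation of −0.07 with the untreated level per kilobase and of 0.12 with gene length, given as a description, since the genes share the same libraries and the untreated level enters both quantities.

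**Figure D4:**
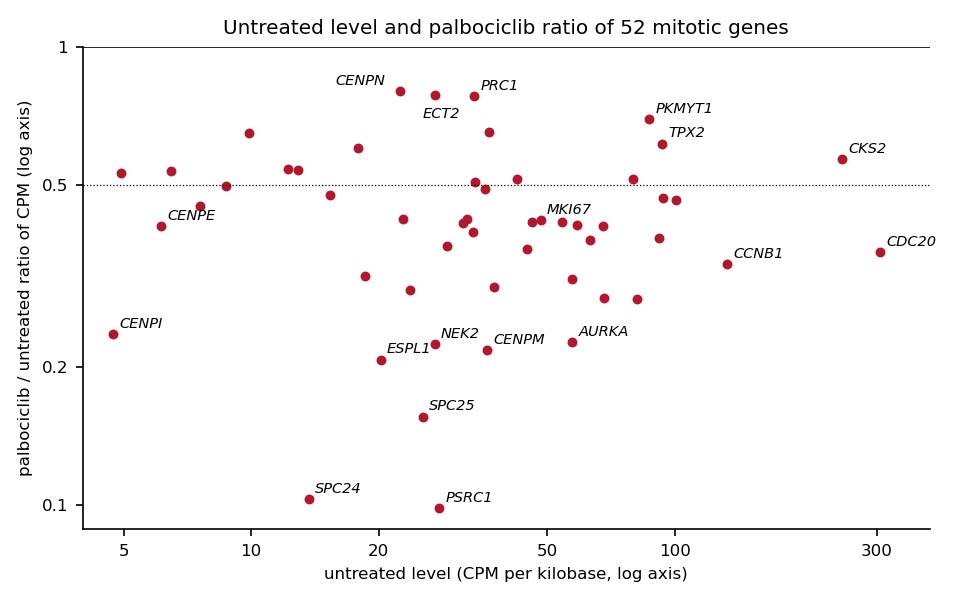
Untreated level in CPM per kilobase (log axis) and palbociclib ratio to untreated (log axis) of the 52 mitotic genes, each point a gene, with some named. The dotted line is a ratio of 0.5. Genes at 0.0983 (PSRC1) and 0.782 (PRC1) have similar untreated levels, and the rank correlation over the 52 is −0.07.

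RefSeq promoter windows, from 250 bases before to 50 after each start, were matched by symbol to 42 of the 52 members. The CHR letters TTTGAA on either strand stood in a window of 30 of these 42 genes (71.4%), against 18.2% of all 27305 genes in the RefSeq table and 13.3% of the 8977 matched genes that were compared. CCAAT on either strand stood in 32 of 42 (76.2%), against 39.7% of all genes and 43.2% of those compared. Both were found in 23 of 42 (54.8%), against 8.37% of all genes and 7.41% of those compared. An E2F motif, searched on both strands as TTTCCCGC or as TTTGGCGC or as TTTCGCGC, stood in 3 of 42 (7.14%), against 3.3% of all genes and 5.65% of those compared, a share near that of the members. With TTCGAA and TTTAAA allowed as further CHR letters, 36 of 42 had a match (85.7%), against 29% of all genes and 22.3% of those compared. The median palbociclib log2 ratio of the members was −1.25 with TTTGAA and −1.52 without, and −1.29 with CCAAT and −1.24 without. Over the 8977 matched genes that were compared it was −0.12 with TTTGAA and −0.07 without, and −0.10 with CCAAT and −0.06 without. SPC25 and CENPN, far apart in ratio at 0.156 and 0.80, each hold TTTGAA within 3 bases of the start and CCAAT before it, as printed above. A match is a description of letters and was not tested as a binding site.

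Other genes of mitosis, listed by complex or role with earlier results of these data known, gave the surroundings of the 52. Of 85 such genes 84 passed the level filter, LIN37 being the exception, and 29 of the 84 were lower and 0 higher with palbociclib, where 13.6% of all genes were lower, with a median log2 ratio of −0.72. With siRNA 0 were lower and 0 higher. The list of CDC25B, WEE1, CCNF, MELK, PBK, CDCA2 and CDCA3 was counted as lower in 6 of 7 cases. For further spindle and cytokinesis genes it was 10 of 14. For the APC/C subunits listed together with FZR1, UBE2S and the inhibitor FBXO5 it was 2 of 16. For cohesin and its control it was 2 of 13, and both counts were near the share of all genes. For condensin II it was 0 of 3. For further inner kinetochore genes it was 6 of 13, for the MIS12 complex with KNL1 2 of 5, and for further checkpoint genes 1 of 5. The DREAM and MuvB subunits were counted in 0 of 8 cases, with a median log2 ratio of −0.48. The lowest palbociclib ratios were 0.163 (0.135 to 0.195) for CDCA3, an adaptor for degradation of the entry inhibitor WEE1, 0.205 for CENPW, a CCAN subunit, and 0.237 for HJURP, the chaperone that deposits CENPA. The highest were 1.89 (1.77 to 2.02) for NIPBL, the cohesin loader, 1.56 for WAPAL, the cohesin release factor, and 1.5 (1.29 to 1.73) for MIS12, a kinetochore scaffold subunit. Palbociclib stood above siRNA by the 2-fold rule for NIPBL alone among the 84, at 2.07.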

How the data were processed

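RNA sequencing of 3 HCT116 libraries was analysed from the deposited counts per gene, which are whole numbers and not normalised. HTSeq 0.6.1, DESeq and hg19 are named in the submitters' processing notes. The aligner, annotation and strand setting were not given in the sources used here. The FPKM values deposited by the authors rescale the same counts, since the length implied by count and FPKM deviated by at most 7.4e-12 (relative) over 24761 entries. That length gave CPM per kilobase.

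Library totals were scaled by TMM (edgeR 4.0.16, R 4.3.3), with factors of 0.901 for palbociclib, 1.07 for CDK4 siRNA and 1.03 for untreated. Ratios of CPM carry exact 95% Clopper-Pearson intervals, and levels exact Poisson intervals. Where the ratio of a member was divided by that of another, the 95% interval is a normal approximation on the log scale. These intervals cover the counting error of reads only. No molecular identifiers mark single molecules, so copies of the same molecule could count as separate reads, and the intervals may be too narrow. Log2 ratios used a prior count of 2. Calculations were tested on simulated data. The main comparisons used all 12694 genes with a mean of at least 1 CPM, and alternative scalings or filters changed that number. No p-value was computed.

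The members, role groups, other mitotic genes and marker genes were chosen with earlier results of these data known. All 52 members are named. In each role group the lowest and the highest palbociclib ratio get reads, CPM and interval, as do members beside the 2-fold threshold. Of the other mitotic genes the 3 lowest and the 3 highest are named in the report. Pairs of members were chosen after their values were seen. Promoters come from RefSeq windows in GRCh38.p14, and overlaps of exons from GENCODE 29 on GRCh38, not the build of the counts. Of the members, 13 share exonic sequence with another gene there. The alternatives were other scalings (total reads, DESeq2 1.42.0 size factors, TMM without mitochondrial, ribosomal and MALAT1 entries), FPKM with a pseudocount of 0.1, other prior counts, level filters and fold thresholds, summed duplicate entries, a length trend subtracted and, added after the data were seen, overlapping members left out.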

Additional observations from a re-analysis of the deposited data

How the results depend on the processing

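All 52 members stayed below the untreated level with palbociclib in each of the 7 alternatives that change single ratios, and the count of members past the fold threshold with CDK4 siRNA stayed 0 in every setting run. Scaling by total reads moved the members' median log2 ratio to −1.47 for palbociclib against untreated and −1.52 for palbociclib against siRNA, and FPKM moved it to −1.46 and −1.51. With either, 41 of the other mitotic genes were lower and 0 higher with palbociclib than with siRNA. Of all genes in that comparison, 20.8% were lower and 5.16% higher with total reads, and 19.6% and 5.08% with FPKM. With total reads the palbociclib library had a median over all genes of −0.27 against untreated and −0.33 against siRNA, and higher genes made up 25.7% and 19.8% of those past the rule, where TMM gave 42.4% and 38.8%. A 1.5-fold threshold gave 49 other mitotic genes lower and 2 higher for palbociclib against untreated, and 46 lower and 3 higher against siRNA, where 25.3% and 20.3% of all genes were lower and higher against untreated, and 25.8% and 19.5% against siRNA. A 3-fold threshold left 14 members and 14 other mitotic genes lower for palbociclib against untreated, and 13 members, 12 other genes lower and 0 higher against siRNA, where 4.56% of all genes were lower against untreated and 4.62% against siRNA. Without the members that overlap another gene, 28 of 39 were lower with palbociclib than in untreated cells, where 13.6% of all genes were lower. With the length trend subtracted 32 of 52 were lower, where 11.8% of all genes were lower. Members with few reads, such as SPC24 with 53 and CENPI with 59 in the palbociclib library, have the widest intervals relative to their ratios. No paired analysis was possible because each group has 1 library, and no library could be left out.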

Other observations

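In several lists of other mitotic genes the palbociclib ratios had a wide range, while the 3 condensin II genes lay between 0.559 (NCAPD3) and 0.744 (NCAPH2). In the cohesin group SGOL2, a shugoshin that shields centromeric cohesin, was at 0.249 (0.215 to 0.288) with palbociclib against untreated, while the loader NIPBL was at 1.89. In the outer kinetochore scaffold CASC5, the checkpoint platform KNL1, was at 0.299 (0.266 to 0.335), while MIS12 was at 1.5. Among further checkpoint genes KNTC1, the ROD subunit of the RZZ complex, was at 0.283 (0.238 to 0.334), while MAD1L1, the partner of MAD2, was at 1.21 (1.11 to 1.33). In the APC/C list FBXO5, the APC/C inhibitor EMI1, was at 0.458 (0.398 to 0.524), while the subunit ANAPC10 was at 1.48 (1.12 to 1.96) on 111 reads with palbociclib. ANAPC10 had 97 reads in untreated cells and was also at 1.42 (1.08 to 1.86) with siRNA against untreated. Its ratio of palbociclib to siRNA was 1.04 (0.803 to 1.36), an interval that holds 1. Of the DREAM and MuvB list RBL1, the pocket protein p107, was lowest at 0.498 (0.416 to 0.594) and LIN54, the subunit that binds the CHR, highest at 1.28 (1.13 to 1.45). These genes are the extremes of each list and were named after their values were seen.

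Genes of the kinase pathway around the drug target had other values. CDK4 was at 0.686 (0.643 to 0.732) with palbociclib against untreated. CDK6 was at 1.69 (1.61 to 1.79) with palbociclib and 0.779 (0.732 to 0.830) with siRNA, each against untreated. CDKN1A, the CDK inhibitor p21, was at 1.65 (1.61 to 1.70) with palbociclib and 0.704 (0.680 to 0.729) with siRNA, each against untreated. RB1, the retinoblastoma protein gene, was at 0.702 (0.634 to 0.777) with palbociclib and 1.02 (0.940 to 1.11) with siRNA.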
